A study of Saccharomyces cerevisiae with 8 samples.

Results

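The 10 genes described here encode core factors of the machinery that cuts messenger RNA precursors and adds their poly(A) tails in budding yeast: RNA14, RNA15, PCF11, CLP1, HRP1, CFT1, CFT2, YSH1, PTA1 and PAP1. They were chosen by name for their function, not for their values, although earlier results of these data were known. They are 10 of the 6532 entries of the deposited count table. Transcript levels and poly(A) tails had been measured by PAT-seq, a method that sequences the 3′ ends of polyadenylated RNA together with part of the tail, in Saccharomyces cerevisiae BY4741. All samples shared this MATa laboratory strain, which carries his3Δ1, leu2Δ0, met15Δ0 and ura3Δ0 and is otherwise wild type. The 4 groups were Log phase (cells in liquid culture at mid log phase), Day 2, Day 3 and Day 4 (colonies on solid medium, plated from such a culture and collected after that many days), with 2 libraries each. The colonies differ from Log phase in medium, in form of growth and in time at once, so these cannot be told apart. A colony holds cells in different states, so fewer cells expressing a gene and less RNA per cell cannot be told apart either.

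In yeast, a new transcript is cut at its 3′ end by the cleavage and polyadenylation factor (CPF), which carries the endonuclease and the poly(A) polymerase. Cleavage factor IA (Rna14, Rna15, Pcf11 and Clp1) and cleavage factor IB (Hrp1) help to recognise the RNA and place the cut. The machinery acts on nearly all mRNAs, its own included, so each of these transcripts is also a substrate of the proteins it encodes. RNA14 mRNA is known in yeast to be made with alternative 3′ ends, some of them inside the coding region; the values used here are per gene and hold all ends together.

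The 10 genes each consist of 1 uninterrupted coding stretch, with no intron, on chromosomes I, IV, VII, XI, XII, XIII and XV. Their coordinates in the deposited gene table were identical to those of the R64 reference. RNA14, which had the smallest p among the 4 groups, lies on the plus strand of chromosome XIII from 392755 to 394788. HRP1 lies on the plus strand of chromosome XV from 87844 to 89448, CFT1 on the plus strand of chromosome IV from 1063352 to 1067425, CLP1 on the minus strand of chromosome XV from 800970 to 802307, and PTA1 on the minus strand of chromosome I from 58695 to 61052. PCF11 lies on the minus strand of chromosome IV from 921926 to 923806, and CFT2 on the plus strand of chromosome XII from 377985 to 380564.

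Hrp1 binds UA-rich RNA, and the best known form of this efficiency element reads TATATA in DNA. In the 200 bases after the stop codon, TATATA occurred in 8 of the 10 genes and in 48.3% of 6002 yeast genes. PAP1 and YSH1 were the members without it in that window. The motif is its own reverse complement, so both strands were searched at once. Searched on the gene's own strand, TACATA occurred in 5 of the 10 genes and 25.6% of all genes, and AATAAA in 2 of the 10 genes and 30% of all genes. A match here is a run of letters and no evidence of binding. The first TATATA after the stop codon is shown for the 7 genes whose levels differed among the 4 groups, from the RefSeq sequence of R64, with the motif in capitals and 12 bases on each side, 5′ to 3′ on the gene's own strand.
RNA14, chrXIII:394796-394825, plus strand, motif starting 19 bases after the stop codon: ttaataaataggTATATAtgaatatttata
HRP1, chrXV:89524-89553, plus strand, 87 bases after: agcaatttataaTATATAtatacatgtacg
CFT1, chrIV:1067453-1067482, plus strand, 39 bases after: taactagcccgaTATATAcatctatctatc
CLP1, chrXV:800848-800877, minus strand, 104 bases after: ttttccaacgctTATATAttaacaatattg
PTA1, chrI:58656-58685, minus strand, 21 bases after: ttacatacatcaTATATAcgcatgtgtagg
PCF11, chrIV:921895-921924, minus strand, 13 bases after: agcagaactgcaTATATAcatttaaattta
CFT2, chrXII:380658-380687, plus strand, 105 bases after: cgctattatctgTATATAacattctaactc
PCF11 carried the element nearest to its stop codon among these 7, and CFT2 the farthest. The gene for Hrp1 itself, HRP1, holds a longer alternating run that continues past the capitals.

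Levels are given as CPM, read counts scaled to a common library size by TMM normalisation, and a change as log2 fold change ± SE from edgeR's quasi-likelihood test with Benjamini-Hochberg adjustment over 5930 genes. "Rose" and "fell" are used where the adjusted p was below 0.05. Total counts ran from 6203115 to 8441949 per library, the 10 members had 57 to 2501 counts per library, and all of them passed the filter on low counts. If total counts are the only scaling, the median gene is shifted upwards relative to Log phase, by 0.38 (Day 2), 0.40 (Day 3) and 0.44 (Day 4) on the log2 scale; changes below are on the TMM scale unless another is named.

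RNA14 was the single member that rose against Log phase, with its step between Day 2 and Day 3, while 5 or 6 of the other members fell below Log phase on each day. On Day 4 the falling members were HRP1, CLP1, CFT1, PCF11 and CFT2. PAP1 and YSH1, the polymerase and the endonuclease, passed the test in none of the 6 comparisons. Against Log phase, 0 members rose and 6 fell on Day 2, beside 28.3% of all genes higher and 28.2% lower. The 6 include RNA15, whose count is uncertain. On Day 3, 1 rose and 6 fell, beside 34.5% and 34.4% of all genes, and on Day 4, 1 rose and 5 fell, beside 37.2% and 37%. DESeq2 also called 0 members higher on Day 2, and at an unadjusted p under 0.05 the edgeR count was 0 as well. The median log2 fold change of the 10 members was −0.49, −0.62 and −0.43 on the 3 days, against 0.02, 0.01 and 0.01 for all genes tested. Among the 4 groups, 7 of the 10 differed, beside 83.4% of all genes.

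**Figure D1:**
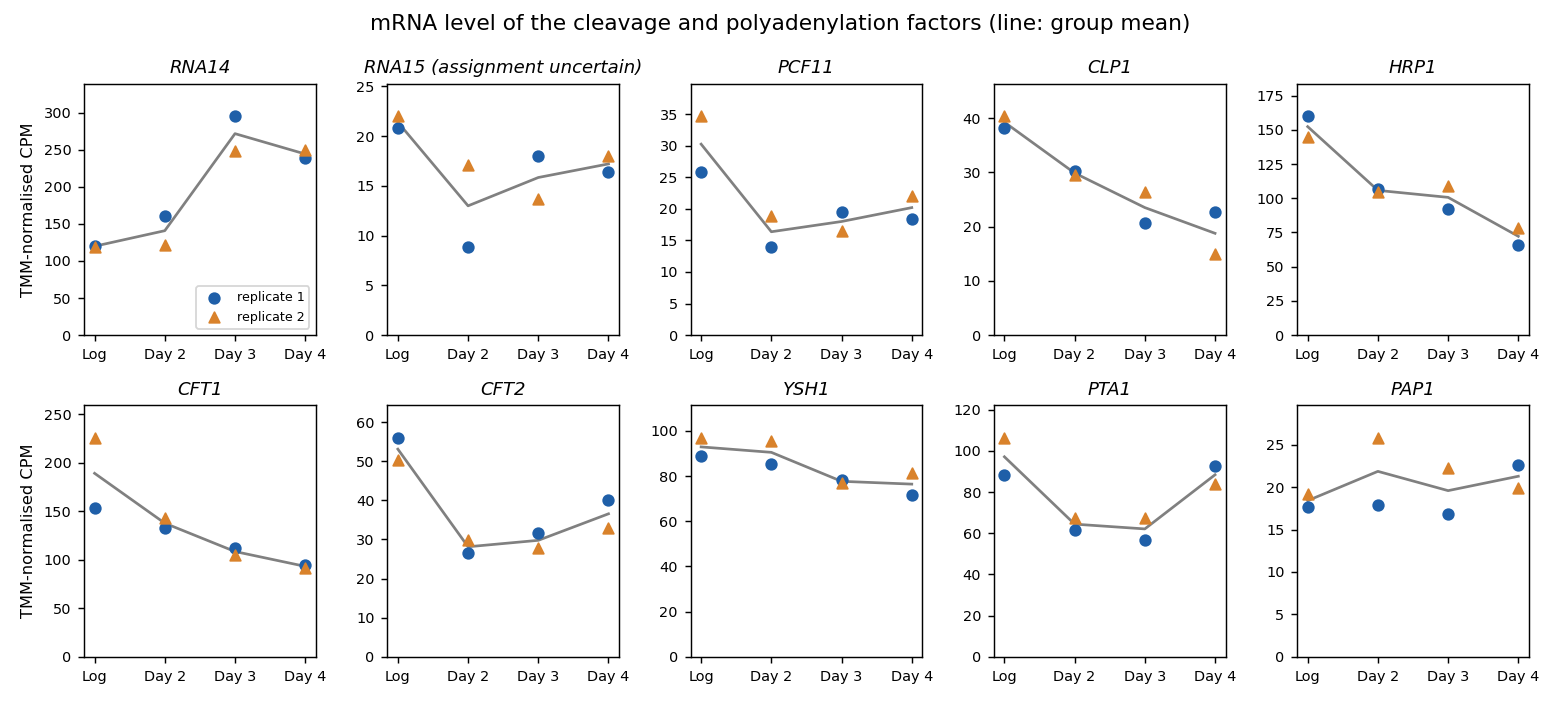
Level of each of the 10 genes in CPM (vertical axes, each starting at 0) in the 8 libraries, with Log phase, Day 2, Day 3 and Day 4 along the horizontal axis; points are libraries (circles replicate 1, triangles replicate 2) and lines join group means. RNA14 had 238.6 to 294.9 CPM in the Day 3 and Day 4 libraries, and HRP1 and CFT1 were lowest on Day 4.

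RNA14 encodes the scaffold subunit of cleavage factor IA, which holds Rna15 and joins the factor to the rest of the machinery. It had 120.4 and 119.2 CPM in the Log phase libraries, 160.8 and 120.8 CPM on Day 2, 294.9 and 248.5 CPM on Day 3 and 238.6 and 249.7 CPM on Day 4. The 4 libraries of Day 3 and Day 4 lay above all 4 of Log phase and Day 2. The level was 2.27-fold higher on Day 3 than in Log phase (1.18 ± 0.16, adjusted p = 7.16e-07) and 2.04-fold higher on Day 4 (1.03 ± 0.16, adjusted p = 4.36e-06). Most of the step fell between Day 2 and Day 3 (0.95 ± 0.16, adjusted p = 3.27e-05), and Day 4 was also above Day 2 (0.80 ± 0.16, adjusted p = 0.000144). Day 2 against Log phase gave 0.23 ± 0.16 (adjusted p = 0.231), which passed the test without Day 2 replicate 2 (0.42, adjusted p = 0.0204). The Day 3 and Day 4 calls against both earlier groups held in each of the 15 alternatives, with Day 4 against Log phase between 0.94 and 1.47. RNA14 lies tail to tail with ARG7, 265 bases from it, as HRP1 does with SMF1 (243 bases), PCF11 with SIR4 (278 bases) and RNA15 with RIM8 (415 bases). The sources used here do not say whether counting used the strand, so reads of such neighbours cannot be told apart where the transcripts overlap.

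The other subunits of cleavage factor IA moved down or did not pass the test. CLP1, which encodes the subunit that bridges Pcf11 to the complex and binds ATP, had group means that each lay below the one before, although no step between neighbouring groups passed the test. It had 38.2 and 40.3 CPM in Log phase, 30.3 and 29.5 CPM on Day 2, 20.6 and 26.4 CPM on Day 3 and 22.7 and 14.9 CPM on Day 4. No colony library reached the lower Log phase library. Day 2 against Log phase gave −0.39 ± 0.22 (adjusted p = 0.135), Day 3 was lower than Log phase by −0.74 ± 0.22 (adjusted p = 0.00523) and Day 4 by −1.07 ± 0.23 (adjusted p = 0.000189). CLP1 was also lower on Day 4 than on Day 2 (−0.67 ± 0.23, adjusted p = 0.0128). The Day 3 call was lost without Day 3 replicate 1 (−0.57, adjusted p = 0.0757), and the Day 4 against Day 2 call without Day 4 replicate 2 (−0.40, adjusted p = 0.213).

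PCF11 encodes the subunit that binds the C-terminal domain of RNA polymerase II and is needed for transcription termination. It had 25.9 and 34.6 CPM in Log phase, 13.9 and 18.9 CPM on Day 2, 19.5 and 16.5 CPM on Day 3 and 18.4 and 22.0 CPM on Day 4. All 6 colony libraries lay below both Log phase libraries, and the 3 days overlapped. The change was −0.87 ± 0.24 (adjusted p = 0.00354) on Day 2, −0.75 ± 0.24 (adjusted p = 0.00758) on Day 3 and −0.58 ± 0.24 (adjusted p = 0.0303) on Day 4. Without Log phase replicate 2, the higher of the pair, none of the 3 calls passed (−0.65, −0.52 and −0.36; adjusted p = 0.087, 0.138 and 0.297). The Day 3 call was also lost without Day 3 replicate 2 (−0.63, adjusted p = 0.0725), and the Day 4 call without Day 4 replicate 1 (−0.46, adjusted p = 0.181) and with DESeq2 (−0.58, adjusted p = 0.0531).

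RNA15 encodes the subunit of cleavage factor IA that binds A-rich RNA near the cut. Its level is uncertain: over all libraries it has 1067 reads in the count table but 2157 in the deposited gene table, and in 3 libraries it has more tailed reads than counts. It had 20.8 and 22.0 CPM in Log phase, 8.90 and 17.1 CPM on Day 2, 18.0 and 13.6 CPM on Day 3 and 16.4 and 18.0 CPM on Day 4. It was lower than Log phase on Day 2 (−0.70 ± 0.28, adjusted p = 0.0365), which rested on Day 2 replicate 1 (−0.32 without it, adjusted p = 0.359) and was also lost without either Log phase library (−0.74 and −0.66, adjusted p = 0.0998 and 0.144). For the other 9 members the 2 tables agreed closely.

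HRP1 encodes the RNA-binding protein that makes up cleavage factor IB and also accompanies mRNA out of the nucleus. It had 159.8 and 144.9 CPM in Log phase, 106.9 and 104.6 CPM on Day 2, 92.1 and 109.2 CPM on Day 3 and 65.8 and 78.6 CPM on Day 4. The groups separated into Log phase at the top, Day 2 and Day 3 overlapping in the middle and Day 4 at the bottom. HRP1 fell on Day 2 (−0.53 ± 0.16, adjusted p = 0.00599), on Day 3 (−0.60 ± 0.15, adjusted p = 0.00158) and on Day 4 (−1.08 ± 0.16, adjusted p = 1.66e-06) against Log phase. Day 4 was lower than Day 2 (−0.55 ± 0.16, adjusted p = 0.00406) and lower than Day 3 (−0.48 ± 0.16, adjusted p = 0.0266). The Day 4 against Day 3 call was lost without Day 3 replicate 2, Day 4 replicate 1 or Day 4 replicate 2 (−0.36, −0.36 and −0.62; adjusted p = 0.208, 0.264 and 0.0647). The Day 4 against Day 2 call was lost without Day 4 replicate 1 (−0.43, adjusted p = 0.0847), and the Day 2 call against Log phase without Log phase replicate 1 (−0.45, adjusted p = 0.0689).

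Of the CPF subunits, CFT1 encodes the largest, a protein that binds the RNA around the cleavage site and anchors the polymerase module. It had 152.9 and 225.2 CPM in Log phase, 132.8 and 142.5 CPM on Day 2, 111.9 and 105.1 CPM on Day 3 and 95.0 and 91.4 CPM on Day 4. The 4 groups followed each other downwards with no overlap, although the Log phase libraries differed widely from each other. Neither step between neighbouring colony days passed the test: Day 3 against Day 2 gave −0.34 ± 0.17 (adjusted p = 0.0916) and Day 4 against Day 3 −0.22 ± 0.17 (adjusted p = 0.362). CFT1 fell on Day 2 (−0.46 ± 0.17, adjusted p = 0.023), Day 3 (−0.80 ± 0.17, adjusted p = 0.000185) and Day 4 (−1.02 ± 0.17, adjusted p = 9e-06), and it was lower on Day 4 than on Day 2 (−0.56 ± 0.17, adjusted p = 0.00551). The Day 2 call was lost without Log phase replicate 2 (−0.15, adjusted p = 0.551) or Day 2 replicate 1 (−0.40, adjusted p = 0.0681), and the Day 4 against Day 2 call without Day 4 replicate 2 (−0.54, adjusted p = 0.0524).

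CFT2 encodes an RNA-binding subunit that resembles the endonuclease but is thought not to cut. It had 55.9 and 50.3 CPM in Log phase, 26.5 and 29.7 CPM on Day 2, 31.7 and 27.9 CPM on Day 3 and 40.2 and 32.9 CPM on Day 4. It was lower than Log phase on Day 2 (−0.91 ± 0.20, adjusted p = 0.000373), on Day 3 (−0.83 ± 0.19, adjusted p = 0.00057) and on Day 4 (−0.54 ± 0.19, adjusted p = 0.0149). All colony libraries lay below both Log phase libraries, and Day 4 lay above Day 2 and Day 3. The Day 4 call was lost without Log phase replicate 1 (−0.46, adjusted p = 0.103) or Day 4 replicate 2 (−0.40, adjusted p = 0.149).

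PTA1, which encodes a scaffold subunit that links the modules of CPF, was the member that dipped and came back. It had 88.1 and 106.1 CPM in Log phase, 61.5 and 67.3 CPM on Day 2, 56.8 and 67.4 CPM on Day 3 and 92.7 and 84.1 CPM on Day 4. The Day 2 and Day 3 libraries lay below those of Log phase and Day 4, which overlapped. It fell on Day 2 (−0.59 ± 0.16, adjusted p = 0.00384) and Day 3 (−0.64 ± 0.16, adjusted p = 0.00131) against Log phase, and was higher on Day 4 than on Day 2 (0.45 ± 0.16, adjusted p = 0.0187) and Day 3 (0.51 ± 0.16, adjusted p = 0.024). Day 4 against Log phase gave −0.14 ± 0.16 (adjusted p = 0.46), and 0.00 without Log phase replicate 2. The Day 2 call was lost without that library (−0.45, adjusted p = 0.0821), and the call of Day 4 against Day 2 without Day 4 replicate 1 (0.38, adjusted p = 0.147). The call of Day 4 against Day 3 was lost without Day 3 replicate 1, Day 4 replicate 1 or Day 4 replicate 2 (0.39, 0.43 and 0.57; adjusted p = 0.187, 0.191 and 0.0895).

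Neither enzyme passed the test on this scale. YSH1, which encodes the endonuclease, had 89.1 and 96.8 CPM in Log phase, 85.4 and 95.7 CPM on Day 2, 78.3 and 77.1 CPM on Day 3 and 71.5 and 81.4 CPM on Day 4. The Log phase and Day 2 libraries overlapped and lay above those of Day 3 and Day 4, which also overlapped, and the test among the 4 groups gave an adjusted p of 0.196. PAP1, which encodes the poly(A) polymerase, had 17.7 and 19.1 CPM in Log phase, 17.9 and 25.8 CPM on Day 2, 16.9 and 22.3 CPM on Day 3 and 22.7 and 19.9 CPM on Day 4. Each group overlapped with both its neighbours in time, and the adjusted p among the 4 groups was 0.729. Their differences of Day 4 against Log phase were −0.28 ± 0.15 for YSH1 (adjusted p = 0.106) and 0.21 ± 0.24 for PAP1 (adjusted p = 0.445).

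**Figure D2:**
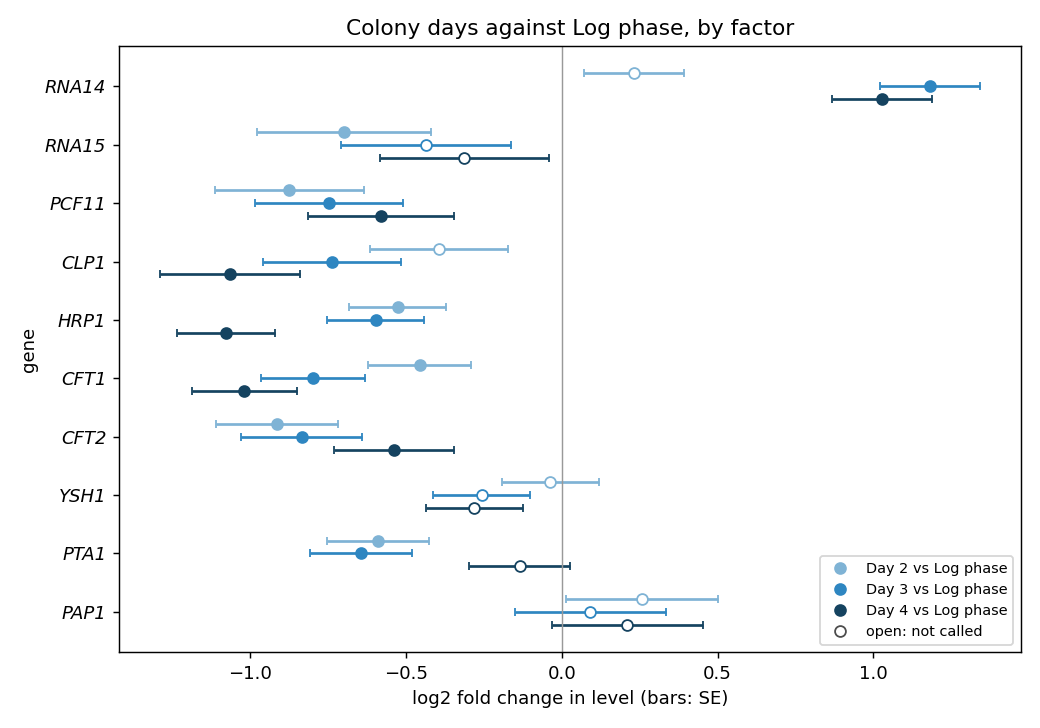
Log2 fold change of each gene against Log phase on Day 2, Day 3 and Day 4 (horizontal axis, 0 meaning no difference), with bars of 1 SE; filled points passed the test at an adjusted p below 0.05. RNA14 lies near 1 on Day 3 and Day 4, while HRP1, CLP1 and CFT1 lie near −1 on Day 4.

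Within the colony series, on Day 3 against Day 2, 1 member rose, RNA14, and 0 fell, beside 24.2% and 25.2% of all genes, and edgeR at an unadjusted p under 0.05 and DESeq2 gave 0 falling members too. On Day 4 against Day 2, RNA14 and PTA1 rose and CLP1, HRP1 and CFT1 fell, beside 30.5% and 32.4% of all genes. On Day 4 against Day 3, PTA1 rose and HRP1 fell, beside 11.8% and 14.6%.

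On the scale of total counts alone, some of these calls and signs change. RNA14 then rose on all 3 days (0.61 on Day 2 and 1.47 on Day 4), and HRP1, CFT1 and CLP1 still fell on Day 4 (−0.64, −0.57 and −0.62). On Day 2 the calls on that scale were RNA14, PAP1 and CFT2 (−0.53), and on Day 3 they were RNA14 (1.58) and CFT1 (−0.40). PAP1 then rose on Day 2 and Day 4 (0.64 and 0.65, adjusted p = 0.0318 and 0.0227). YSH1 and PTA1 had positive Day 4 values on that scale (0.16 and 0.31, adjusted p = 0.351 and 0.0902), and PCF11 and CFT2 no longer passed (−0.14 and −0.10, adjusted p = 0.616 and 0.654).

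Since these proteins work in shared complexes, the members were also set against one another within each library, which needs no scaling between libraries. PAT-seq reads come from the 3′ end and were not divided by gene length. RNA14 made up 15.7% and 13.9% of the members' summed reads in Log phase, 24.9% and 18.5% on Day 2, 39.8% and 34.8% on Day 3 and 34.9% and 36.0% on Day 4. HRP1 made up 20.8% and 16.9% in Log phase, 16.6% and 16.0% on Day 2, 12.4% and 15.3% on Day 3 and 9.61% and 11.3% on Day 4. The shares in a library form a fixed whole, so a larger RNA14 share lowers those of the other members. Set against the sum without RNA14, HRP1 overlapped with Log phase on Day 2 and Day 3 and was lower on Day 4 only. RNA14 held a larger share in each colony library of Day 3 and Day 4 than any other member did. Unlike the shares, sums depend on the scaling. On the TMM scale, the sum over all 10 ran from 644.9 to 740.6 CPM in the colony libraries, against 768.7 and 858.6 CPM in Log phase. Without RNA14 it ran from 443.2 to 531.0 CPM in the colonies, against 648.3 and 739.4 CPM in Log phase. The TMM factors were 0.8246 and 0.7939 in Log phase and 1.033 to 1.104 in the colonies, and a lower factor gives a higher CPM. On total counts alone the Log phase sums are therefore lower relative to the colonies. The drop in the sum over all 10 is not seen on that scale. The sum without RNA14 still lay below both Log phase libraries on Day 3 and Day 4, but not in every Day 2 library.

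**Figure D3:**
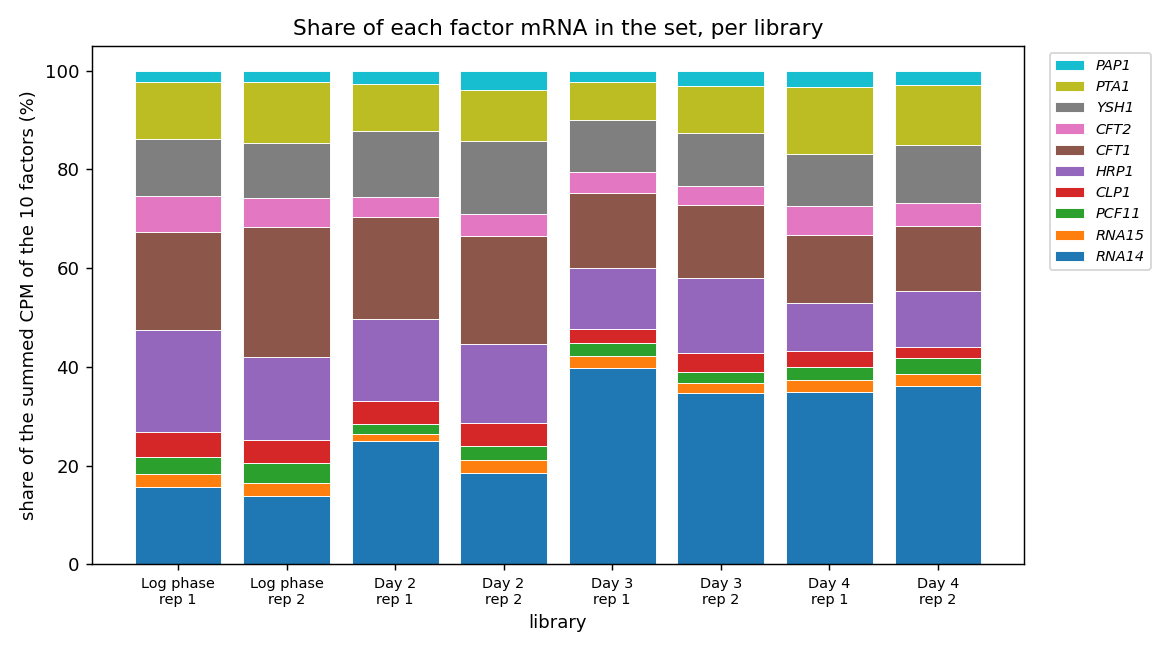
Share of each gene in the summed CPM of the 10 members (percent, vertical axis) in each of the 8 libraries (horizontal axis, Log phase to Day 4). The RNA14 share was 34.8% to 39.8% in the Day 3 and Day 4 libraries, against 15.7% and 13.9% in the Log phase libraries.

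The deposited tables also give the reads that carried a tail, from 17 to 961 per member and library, and with them the share of a gene's reads that were tailed, given here with no test and with Wilson 95% intervals that cover counting error only. For RNA14 that share was 36.8% (33.6% to 40.1%) and 36.6% (33.2% to 40.1%) in Log phase and 38.0% and 35.4% on Day 2. It was 30.3% and 28.9% on Day 3 and 29.6% (27.7% to 31.6%) and 30.5% (28.6% to 32.4%) on Day 4, below all libraries of Log phase and Day 2. Over 4730 genes, the median share was 40.9% and 39.3% in Log phase, 44.4% and 40.8% on Day 2, 37.7% in both Day 3 libraries and 37.5% and 37.0% on Day 4, with the lowest values on Day 3 and Day 4 here too.

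HRP1, CLP1 and PTA1 differed in the other direction. The tailed share of HRP1 reads was 33.0% (30.3% to 35.8%) and 32.0% (29.0% to 35.1%) in Log phase, 42.5% and 41.1% on Day 2, 48.9% and 44.4% on Day 3 and 42.4% (38.4% to 46.5%) and 50.1% (46.4% to 53.7%) on Day 4. All 6 colony libraries lay above both Log phase libraries. The same held for CLP1, at 31.6% and 36.9% in Log phase and 43.8% and 43.7% on Day 2. Its share was 40.0% and 45.0% on Day 3 and 39.3% and 44.8% on Day 4. For PTA1 the share was 27.4% and 28.2% in Log phase, 27.4% and 21.6% on Day 2, 27.2% and 31.1% on Day 3 and 42.3% (38.9% to 45.7%) and 36.2% (32.9% to 39.7%) on Day 4. Both Day 4 libraries stood above the other 6. CFT1 had the highest share of the 9 members with a value in every library, 61.1% to 67.5%. PAP1 ranged from 9.45% to 18.9%, overlapping with CFT2 at 17.8% to 34.6%.

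The level results for HRP1 and PTA1 depended on which reads were counted. With tailed reads only, HRP1 gave 0.089 on Day 3 (adjusted p = 0.695) and −0.35 on Day 4 (adjusted p = 0.102) against Log phase, and passed the test in none of the 6 comparisons. With tailed reads only, PTA1 was higher on Day 4 than in Log phase (0.57, adjusted p = 0.023), the opposite sign to all reads. CLP1, whose tailed share was 39.3% and 44.8% on Day 4 against 31.6% and 36.9% in Log phase, gave −0.59 with tailed reads (adjusted p = 0.0699). RNA14 (0.94) and CFT1 (−0.89) passed on Day 4 with either set of reads. PCF11 (−0.34, adjusted p = 0.31) and CFT2 (−0.33, adjusted p = 0.321) did not pass on Day 4 with tailed reads. Against Log phase, the calls left with tailed reads were PCF11 (−0.77), CFT1 (−0.48) and PTA1 (−0.78), all lower, on Day 2, and RNA14 (1.05) and CFT1 (−0.71) on Day 3. What made a read count as tailed is not given in the sources used here.

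**Figure D4:**
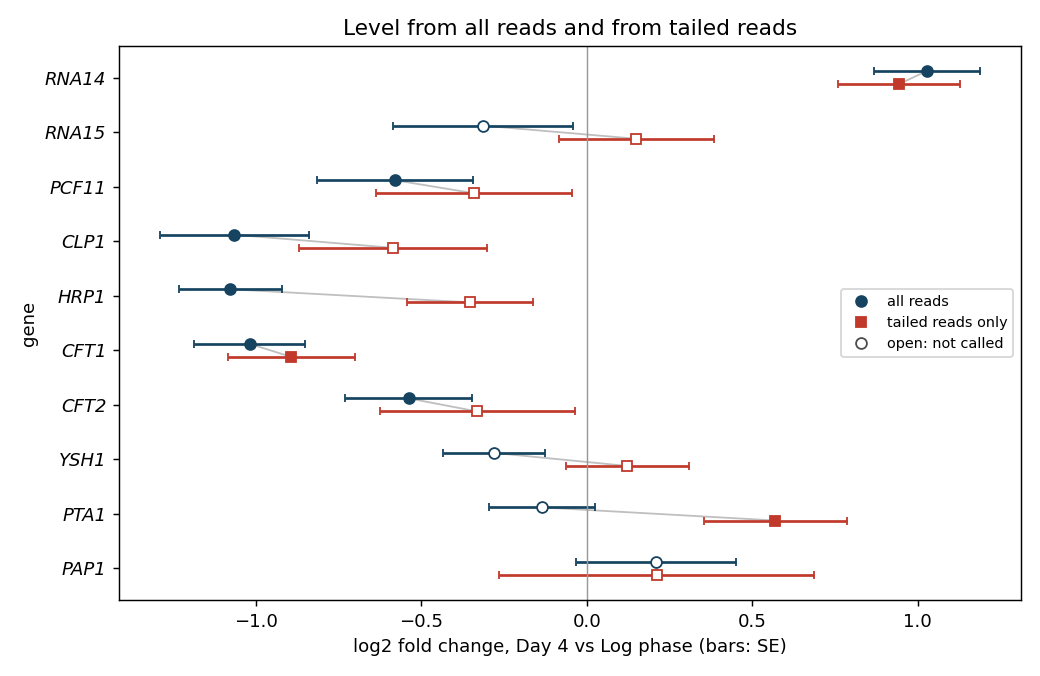
Log2 fold change of Day 4 against Log phase for each gene from all reads (circles) and from tailed reads only (squares), with bars of 1 SE; open markers did not pass the test. RNA14 and CFT1 have like values from both kinds of reads, while PTA1 is −0.14 from all reads and 0.57 from tailed reads.

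Few tail lengths of the members passed the test, in shares near or below those of all genes. The deposited mean tail length of a member ran from 12.2 to 26.0 nt over the 8 libraries, and all 10 had at least 10 tailed reads in every library, the limit for testing. The limma test, adjusted over 5388 genes, called 1 member among the 4 groups, RNA14, beside 24.2% of all genes. Against Log phase, 0 of 10 members passed on Day 2 and 0 on Day 3, beside 1.19% and 2.25% of all genes, with 2 members at an unadjusted p under 0.05 on each day. On Day 4, 1 member was shorter than in Log phase, beside 8.61% of all genes. The median change of the 10 members against Log phase was 1.35, −0.97 and −1.18 nt on Day 2, Day 3 and Day 4, and that of all genes tested was 0.96, −0.97 and −1.16 nt.

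The mean tail of RNA14 mRNA was 18.8 and 20.0 nt in Log phase, 18.6 nt in both Day 2 libraries, 15.7 and 16.9 nt on Day 3 and 16.5 and 15.7 nt on Day 4. The 4 later colony libraries lay below the 4 earlier libraries, as the reverse of its level. The tail was shorter on Day 4 than in Log phase by −3.27 ± 0.82 nt (adjusted p = 0.0404) and than on Day 2 by −2.49 ± 0.82 nt (adjusted p = 0.046), and Day 3 against Log phase gave −3.11 ± 0.82 nt (adjusted p = 0.0777). The median tail over all genes also differed between libraries, at 19.7 and 19.1 nt in Log phase, 20.3 and 20.5 nt on Day 2, 18.2 and 18.3 nt on Day 3 and 18.1 and 17.9 nt on Day 4. After each library was centred on its own median, RNA14 gave −1.87 nt for Day 4 against Log phase (adjusted p = 0.215) and −0.07 nt for Day 4 against Day 2 (adjusted p = 0.965). The call against Log phase was also lost without any 1 of the Log phase, Day 3 or Day 4 libraries (adjusted p from 0.0523 to 0.188), and the Day 4 against Day 2 call without any 1 library other than Log phase replicate 2.

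Between colony days, the members called were all shorter later. On Day 3 against Day 2, PAP1 and YSH1 were shorter, beside 21.8% of all genes, and on Day 4 against Day 2, RNA14, PCF11 and YSH1 were, beside 32%. YSH1 had tails of 20.0 nt in both Log phase libraries, 24.2 and 21.1 nt on Day 2, 18.6 nt in both Day 3 libraries and 20.3 and 17.9 nt on Day 4. It changed by −4.04 ± 1.19 nt on Day 3 (adjusted p = 0.0439) and −3.54 ± 1.19 nt on Day 4 (adjusted p = 0.0497) against Day 2. These calls put the later days below Day 2, where YSH1 tails were longest. PCF11 had 15.7 and 13.6 nt on Day 4, against 18.8 and 20.9 nt on Day 2 (−5.38 ± 1.43 nt, adjusted p = 0.0232). PAP1 had 22.5 and 12.5 nt in Log phase, 22.0 and 26.0 nt on Day 2, 13.6 and 14.2 nt on Day 3 and 14.2 and 18.8 nt on Day 4, a wide spread that came from 17 to 30 tailed reads per library. Its change of −10.7 ± 2.99 nt on Day 3 against Day 2 (adjusted p = 0.0377) was lost without any 1 of those 4 libraries (adjusted p from 0.0595 to 0.202). The YSH1 call on Day 3 was lost without any 1 of Log phase replicates 1 and 2, Day 2 replicate 1 or Day 3 replicates 1 and 2 (adjusted p from 0.0669 to 0.181), and that on Day 4 without any 1 library other than Day 2 replicate 2 (adjusted p from 0.0518 to 0.251). The PCF11 call was lost without Day 2 replicate 2 or Day 4 replicate 2 (−4.24 and −4.29 nt, adjusted p = 0.13 and 0.12). None of these member calls passed after centring (adjusted p from 0.156 to 0.579 for PAP1, PCF11 and YSH1). On Day 4 against Day 3, limma called 0 members and 0% of all genes, with 0 members and 439 of 5388 genes at an unadjusted p under 0.05.

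**Figure D5:**
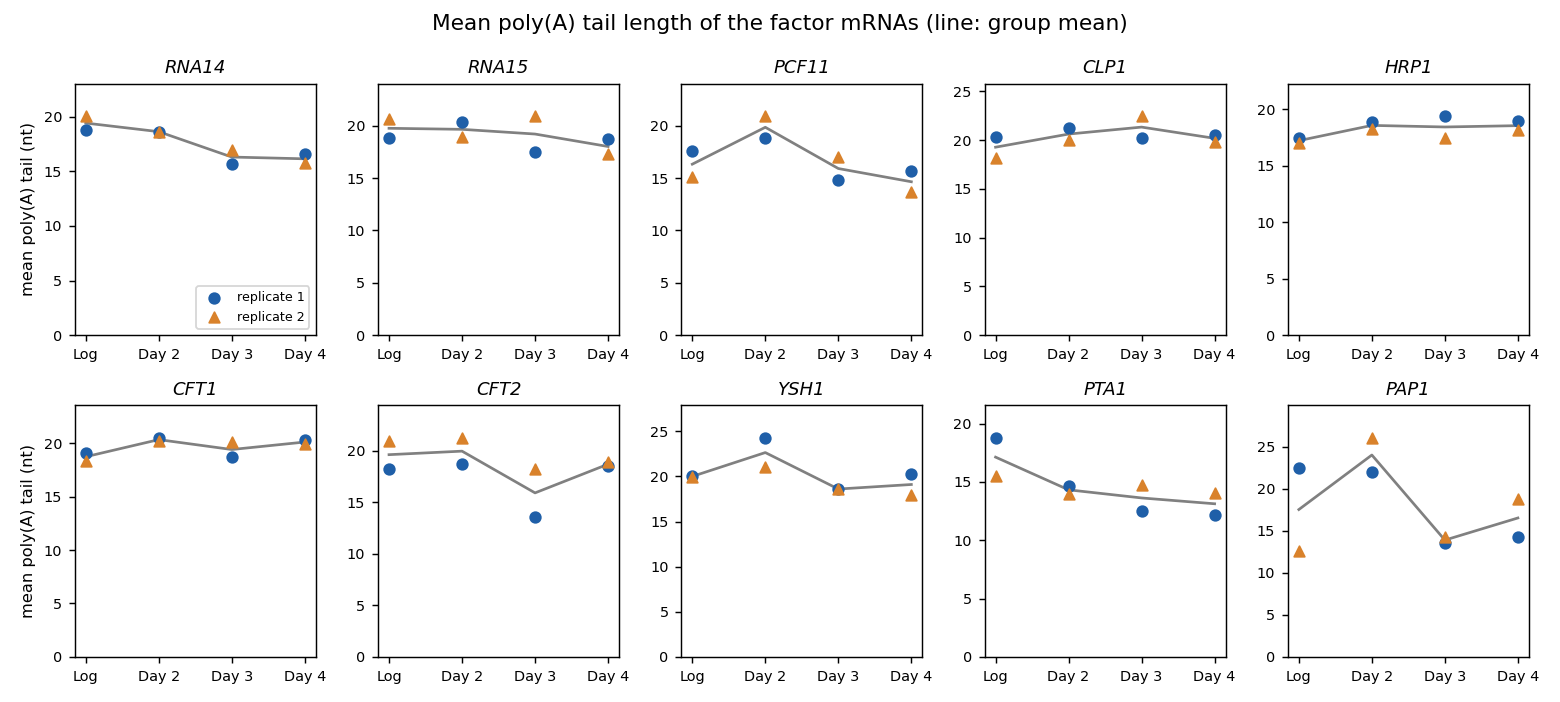
Mean poly(A) tail length in nt (vertical axis) of each gene in the 8 libraries from Log phase to Day 4; points are libraries (circles replicate 1, triangles replicate 2) and lines join group means. RNA14 tails were 15.7 to 16.9 nt on Day 3 and Day 4, against 18.6 to 20.0 nt in Log phase and on Day 2, and PTA1 tails were 12.2 to 18.8 nt.

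Of the members that passed in no tail comparison, PTA1 had the shortest tails overall. They were 18.8 and 15.5 nt in Log phase, 14.7 and 14.0 nt on Day 2, 12.5 and 14.7 nt on Day 3 and 12.2 and 14.1 nt on Day 4. All colony libraries lay below both Log phase libraries, and Day 4 against Log phase gave −4.00 ± 1.20 nt (adjusted p = 0.0683). HRP1 and CFT1 had the most tailed reads beside RNA14 and the narrowest ranges, at 17.0 to 19.4 nt and 18.4 to 20.5 nt over the 8 libraries. CLP1 ranged from 18.2 to 22.4 nt, RNA15 from 17.3 to 20.9 nt and CFT2 from 13.6 to 21.2 nt.

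The other parts of the machinery did not move as 1 block either. Of 10 further CPF subunits, 3 rose and 4 fell on Day 4 against Log phase (median −0.10), beside 37.2% and 37% of all genes. MPE1, which encodes a subunit that helps to activate the endonuclease, averaged 78.2 ± 3.58 CPM on Day 4 and 43.5 ± 5.67 CPM in Log phase (0.84 ± 0.17, adjusted p = 0.000134; SD, n = 2 each), so RNA14 was not alone in rising. SYC1, whose product resembles part of Ysh1, rose too (0.82 ± 0.24, adjusted p = 0.00337). Its reads numbered 1262 in the count table and 1895 in the gene table, within the 2-fold limit for calling a count uncertain. Its tailed share in Log phase was 85.3% in replicate 1 and 47.9% in replicate 2. GLC7, which encodes the phosphatase subunit, gave 2.12 ± 0.22 (adjusted p = 9.37e-09), but its count is uncertain because the 2 deposited tables differ. SWD2 averaged 22.5 ± 3.66 CPM on Day 4 and 76.3 ± 6.99 CPM in Log phase (−1.76 ± 0.19, adjusted p = 1.47e-08). SSU72, which encodes a phosphatase of the polymerase's C-terminal domain, averaged 28.8 ± 3.46 CPM on Day 4 and 75.0 ± 4.02 CPM in Log phase (−1.38 ± 0.19, adjusted p = 9.9e-07). PTI1 (−0.81 ± 0.21, adjusted p = 0.00134) and YTH1 (−0.66 ± 0.26, adjusted p = 0.0268), whose product binds RNA, were the other 2 lower members. FIP1, PFS2 and REF2 did not pass.

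Of 7 nuclear RNA-binding and termination factors, 1 rose and 4 fell on Day 4 against Log phase (median −0.62), again beside 37.2% and 37% of all genes. The genes of the torpedo exonuclease and its partner, RAT1 (−0.87 ± 0.18, adjusted p = 0.000147) and RAI1 (−1.54 ± 0.17, adjusted p = 1.78e-08), fell. NAB2, which encodes a nuclear poly(A)-binding protein, fell as well (−0.62 ± 0.19, adjusted p = 0.00581). NRD1, which encodes a factor that ends short non-coding transcripts, averaged 196.3 ± 4.91 CPM in Log phase, 49.1 ± 6.47 CPM on Day 2, 76.8 ± 19.5 CPM on Day 3 and 123.0 ± 27.5 CPM on Day 4 (SD, n = 2 each). It fell most on Day 2 (−2.00 ± 0.19, adjusted p = 5.92e-09) and was still lower on Day 4 (−0.67 ± 0.18, adjusted p = 0.00183), though higher there than on Day 2 (1.32 ± 0.19, adjusted p = 2e-06). NAB3 gave 1.01 ± 0.23 (adjusted p = 0.000425), with an uncertain count.

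Of 7 RNA polymerase II subunits, 6 fell on Day 4 against Log phase (median −0.75), beside 37% of all genes, and RPB9, with an uncertain count, did not pass. The 6 were RPO21, RPB2 (with an uncertain count), RPB3, RPB4, RPB7 and RPB11, from −1.41 ± 0.21 for RPB3 to −0.45 ± 0.16 for RPB4. These are values on the TMM scale. With total counts as the only scaling, the median gene is shifted upwards by 0.44 on Day 4, close to the size of the RPB4 fall. The alternatives were examined gene by gene for the 10 members only, so how far the level calls in these 3 lists depend on scaling was not tested. RPO21, which encodes the largest subunit, averaged 190.4 ± 14.6 CPM in Log phase, 63.9 ± 27.0 CPM on Day 2, 47.7 ± 4.79 CPM on Day 3 and 135.4 ± 6.48 CPM on Day 4 (SD, n = 2 each). It was also the single gene of these 3 lists whose tail passed on Day 4 against Log phase (−3.19 ± 0.77 nt, adjusted p = 0.0359), beside 8.61% of all genes shorter. Whether this tail call holds after centring or without single libraries was not tested.

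By Pearson correlation of log2 CPM over the 8 libraries, the genes most like RNA14 among 3096 with at least 50 CPM on average were HRT1 (r = 0.987), INO1 (r = 0.986) and ADH2 (r = 0.983). The points are 8 libraries in 4 groups, so these values describe a shared course and carry no test. HRT1, which encodes a ubiquitin ligase subunit, averaged 35.5, 44.8, 86.3 and 70.5 CPM from Log phase to Day 4. INO1, which encodes inositol-3-phosphate synthase, averaged 32.1, 36.9, 187.0 and 169.2 CPM. ADH2, which encodes the glucose-repressed alcohol dehydrogenase, averaged 22.4, 46.6, 521.2 and 478.2 CPM. All 3 share with RNA14 a low Log phase and Day 2 and a high Day 3 and Day 4, with steps of different size.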

How the data were processed

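PAT-seq libraries (75-base SOLiD reads, per the labels' protocols) of 8 samples were counted per gene by the authors. The deposited tables hold raw counts per gene, counts of tailed reads and the mean tail length in nt (an average per gene and library, not normalised). A gene table, also deposited, holds coordinates, pooled reads and the tailed fraction per gene. Per the submitters' files, RNA was total RNA from hot phenol extraction; the aligner, the counting and tail rules and the genome build were not given in the sources used here. Of 5813 entries shared with R64, 5772 lay at identical positions.

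Levels were tested with edgeR 4.0.16 (TMM, filterByExpr, quasi-likelihood, 1 mean per group over all 8 libraries; biological coefficient of variation 0.128) and tails with limma 3.58.1 (genes with 10 or more tailed reads in each library, weighted by tailed reads capped at 100, with a trend), in R 4.3.3, with Benjamini-Hochberg adjustment over all genes tested and calls at 0.05. Both were run on data simulated from models of the same form, which cannot show how they behave on the real spread between libraries. SE is the moderated error; for edgeR it is the estimate over the square root of F. Alternatives changed normalisation (edgeR RLE factors, total counts), filters, test (DESeq2 1.42.0), read class, weights, centring, scale, block and libraries. Counts were called uncertain where the count and gene tables differed over 2-fold. For likeness, log2 CPM had a prior count of 2.

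All 10 members were named whatever their p; of the 3 further lists, those called on Day 4 against Log phase; and the 3 genes most like the member with the smallest p among the 4 groups. Members and lists were chosen with earlier results of these data known. No label says that replicates came from separate cultures; if they did not, p-values reflect technical spread between libraries. Replicate numbers were not treated as pairs. The deviations of same-numbered libraries correlated between −0.0349 and 0.00554, which cannot tell whether they shared a culture or plating.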

Additional observations from a re-analysis of the deposited data

How the results depend on the processing

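The level calls of RNA14 on Day 3 and Day 4 against Log phase and Day 2 held in all 15 alternatives, and so did those of CFT1 on Day 3 and Day 4 against Log phase. Against 6 members called on Day 2 against Log phase, there were 3 with total-count scaling (of which only CFT2 was among the 6), 3 with tailed reads only (all among the 6) and 2 to 7 with single libraries left out. The 7 of Day 3 against Log phase became 2 with total-count scaling and 2 with tailed reads. With tailed reads the other counts became 3 for Day 4 against Log phase (6; 2 shared, RNA14 and CFT1), 2 for Day 4 against Day 2 (5), 1 for Day 4 against Day 3 (2) and 3 among the 4 groups (7). HRP1 on Day 3 (0.089) and PTA1 on Day 4 (0.57) changed sign with tailed reads against Log phase; why tailed and untailed reads differ was not tested. Leaving out single libraries gave 1 to 2 calls on Day 3 against Day 2 (1), 3 to 6 on Day 4 against Day 2, 0 to 2 on Day 4 against Day 3, 6 to 7 on Day 3 and 5 to 6 on Day 4 against Log phase and 6 to 8 among the 4 groups. The replicate block changed no level call.

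Tail calls were less stable. For Day 4 against Log phase (1 call) there were 0 after centring, without weights, with only the 2 groups compared or with the replicate block, 2 with weights up to 1000 reads and 0 to 1 with single libraries left out. For Day 3 against Day 2 (2 calls) there were 0 after centring or without weights, 1 with a minimum of 30 tailed reads, with only the 2 groups or with the replicate block, and 0 to 2 with single libraries left out. For Day 4 against Day 2 (3 calls) there were 0 after centring, 1 without weights or with only the 2 groups, 2 with the replicate block and 0 to 3 with single libraries left out. Weights up to 1000 gave 1 call on Day 3 against Log phase. Among the 4 groups (1 call) there were 0 after centring, without weights, with the replicate block or with any library left out, and 3 with weights up to 1000. Over all genes, the counts moved past 1.5 times too: on Day 4 against Day 3 the level calls ran from 608 to 2046 (1570 reported). Tail calls ran from 0 to 648 on Day 2 (64), 0 to 504 on Day 3 (121) and 0 to 843 on Day 4 (528) against Log phase. They ran from 0 to 1740 on Day 3 against Day 2 (1187), 410 to 2137 on Day 4 against Day 2 (1774) and 196 to 1963 among the 4 groups (1306). A group left with 1 library is assumed to vary like the others. PAP1 had 17 to 30 tailed reads per library, which limits its tail values. It was therefore not tested with a minimum of 30 tailed reads, which is why that setting gave 1 call on Day 3 against Day 2.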
